A study of Mus musculus with 8 samples.

Results

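The noncoding genes Gas5, Snhg1, Snhg3, Snhg5, Snhg6, Snhg8 and Snhg12, which carry small nucleolar RNAs (snoRNAs) inside their transcripts, are described here. They were chosen by symbol, with earlier results of these data known, and are 7 of 51822 symbols in the deposited tables. Counts of them set beside the share of all tested genes therefore describe the 7 and do not test them as a set. The study followed mouse bone-forming cultures given the aminoindazole derivative locamidazole (LAMZ), and total RNA was read on an Ion Proton instrument. All cultures were kept in alpha-MEM with serum, ascorbic acid, dexamethasone and β-glycerophosphate, and received either DMSO, called control here, or 1 µM LAMZ. There were 4 groups, namely control at day 7, LAMZ at day 7, control at day 14 and LAMZ at day 14, with 2 libraries in each. The labels name MC3T3-E1 cells, a mouse calvarial line, whereas the study's methods and the series title speak of cultured calvarial cells. Every one of the 9 osteoblast markers examined (Runx2, Sp7, Alpl, Col1a1, Col1a2, Bglap, Ibsp, Spp1 and Dmp1) had a value in all 8 libraries. The control libraries also held 15 of 15 macrophage markers, with a summed level of 475 and 621 RPKM at day 7 and of 1179 and 1201 RPKM at day 14, which a label naming a single cell line does not mention. RPKM scales read counts by gene length and by library depth, so levels can be set side by side between genes, while comparisons between libraries also depend on the scaling, as shown further on. All 7 genes were above 0 in all 8 libraries and passed the filter on low values that left 12514 genes for testing.

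SnoRNAs guide chemical modification and processing of ribosomal and other RNAs, and most mammalian snoRNAs are cut out of the introns of host genes after splicing. Box C/D snoRNAs guide 2′-O-methylation and box H/ACA snoRNAs guide pseudouridylation. The spliced exons of many noncoding hosts carry only short reading frames and are degraded by nonsense-mediated decay, and many hosts start in a run of pyrimidines (a 5′ terminal oligopyrimidine, or TOP, start) like the genes of ribosomal proteins, whose translation follows mTOR signalling.

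The GENCODE annotation (version M21) places 27 snoRNAs within the 7 genes: 9 in Gas5, 8 in Snhg1, 4 in Snhg12, 2 each in Snhg3 and Snhg5, and 1 each in Snhg6 and Snhg8. Of these, 24 lie wholly within stretches that some annotated transcript of the host keeps as exon, Snora73a of Snhg3 lies partly so, and Snora73b of Snhg3 and Snord87 of Snhg6 lie outside every annotated host exon. The deposited tables list 25 of the 27 under their own symbols, and each of the 25 stands at 0 in all 8 libraries. The gene lengths behind the values of Gas5, Snhg1 and Snhg5 equal their annotated exons, so reads of the host RNA and of the snoRNAs embedded in it cannot be told apart there. The same holds in part for Snhg3, whose length also equals its annotated exons and whose exons cover 77.6% of Snora73a. For Snhg8 and Snhg12 the lengths behind the values are shorter than the annotated exons, and whether they take in the snoRNAs is not known.

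**Figure D1:**
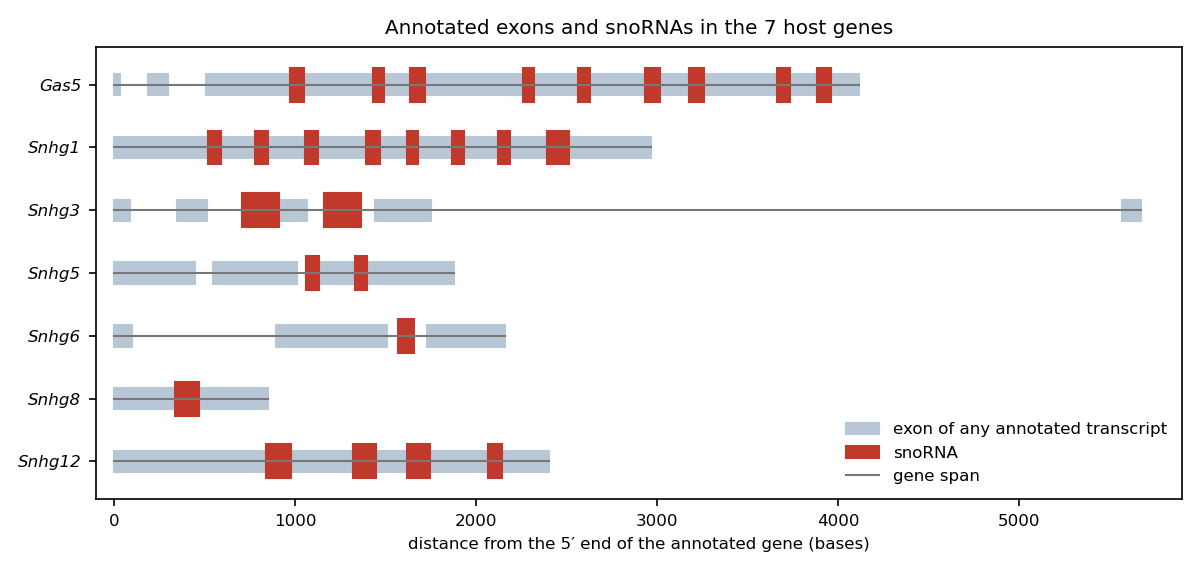
The 7 host genes drawn to scale as distance in bases from the 5′ end of the annotated gene, with annotated exons in grey-blue and snoRNAs in red. The snoRNAs lie inside annotated exons in Gas5, Snhg1, Snhg5, Snhg8 and Snhg12, and fully or partly outside them in Snhg3 and Snhg6.

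To show what the hosts carry, 4 of the embedded snoRNAs are printed from the GENCODE M21 transcript sequences, with their positions on the GRCm38 assembly. All 4 hold the letters marked, so they do not stand for every embedded snoRNA. Snord22 of Snhg1 and Snord87 of Snhg6, for example, hold neither set of exact letters and are not printed. Capitals mark TGATGA and CTGA, the letters of boxes C and D, in the 3 C/D snoRNAs, and ACA near the 3′ end in the H/ACA snoRNA.
Snord47 of Gas5 (chr1:161038082-161038158, + strand): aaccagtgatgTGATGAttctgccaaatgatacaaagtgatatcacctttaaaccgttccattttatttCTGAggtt
Snord50a of Snhg5 (chr9:88521529-88521600, - strand): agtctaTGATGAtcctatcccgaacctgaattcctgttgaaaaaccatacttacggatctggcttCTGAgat
Snord99 of Snhg12 (chr4:132310691-132310764, + strand): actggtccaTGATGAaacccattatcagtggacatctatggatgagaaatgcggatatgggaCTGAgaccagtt
Snora24 of Snhg8 (chr3:123507937-123508066, - strand): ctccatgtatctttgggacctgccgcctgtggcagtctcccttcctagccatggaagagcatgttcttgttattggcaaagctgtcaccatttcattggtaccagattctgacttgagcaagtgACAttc
TGATGA within the first 20 bases together with CTGA within the last 12 was found in 14 of the 27 embedded snoRNAs, against 19.9% of 1483 annotated snoRNA symbols. ACA within the last 8 bases of a snoRNA longer than 100 bases was found in 5 of the 27, against 43.2%, and 8 of the 27 held neither set of exact letters.

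The start regions of 6 of the 7 genes are held in the RefSeq promoter table (GRCm38.p6), which has no entry for Snhg6. They are shown from 40 bases before the start to 40 bases from it because the genes were followed together. Of the 2 entries of Gas5, the entry nearest its first snoRNA is printed. Capitals mark TATA and the longest run of C and T within 20 bases of the start.
Gas5 (chr1:161035126-161035205, + strand): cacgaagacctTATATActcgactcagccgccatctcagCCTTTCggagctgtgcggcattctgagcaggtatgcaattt
Snhg1 (chr19:8723447-8723526, + strand): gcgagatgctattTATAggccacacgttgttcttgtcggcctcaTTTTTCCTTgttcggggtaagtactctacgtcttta
Snhg3 (chr4:132353647-132353726, - strand): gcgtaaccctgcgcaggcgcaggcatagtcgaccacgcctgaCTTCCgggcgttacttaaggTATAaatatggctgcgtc
Snhg5 (chr9:88522858-88522937, - strand): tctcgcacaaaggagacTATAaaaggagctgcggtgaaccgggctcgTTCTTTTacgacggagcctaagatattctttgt
Snhg8 (chr3:123508297-123508376, - strand): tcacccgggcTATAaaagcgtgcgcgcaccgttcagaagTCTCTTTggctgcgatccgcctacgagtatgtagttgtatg
Snhg12 (chr4:132308638-132308717, + strand): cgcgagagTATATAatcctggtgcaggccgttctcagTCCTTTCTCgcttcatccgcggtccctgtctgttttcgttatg
The letters TATA, which read the same on both strands, began between 40 and 20 bases before the start in 5 of the 6 (Snhg3 was the exception), against 5.81% of 32851 promoters in the table and 8.96% of 67 promoters of ribosomal protein genes. With the stricter rule tried first, which asked for the whole motif before that limit, the count was 4 of 6, against 5.34% of all promoters, and the entry of Snhg5 no longer met it. A run of at least 7 C or T on the gene's strand was found in 4 of the 6, against 24.3% of all promoters and 56.7% of the ribosomal protein promoters. Both motifs, the limits of the TATA window and the minimum run were settled after these sequences had been seen, so the counts describe the 6 and test nothing.

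Gas5 (growth arrest-specific 5) hosts box C/D snoRNAs, and its exonic RNA is known to bind the glucocorticoid receptor. Its level was 179 and 72.8 RPKM in the 2 control libraries of day 7, 222 and 174 with LAMZ at day 7, 82.9 and 72.7 in control at day 14, and 128 and 99.5 with LAMZ at day 14. The first control library of day 7 stood within the range of the LAMZ libraries, so the groups overlapped at day 7, whereas both LAMZ libraries lay above both controls at day 14. In limma the log2 fold change of LAMZ over control was 0.78 (SE 0.36, adjusted p = 0.210) at day 7 and 0.53 (SE 0.36, adjusted p = 0.330) at day 14, and neither passed the adjusted p of 0.05 used throughout. Between day 7 and day 14 it was -0.55 in control (adjusted p = 0.427) and -0.79 with LAMZ (adjusted p = 0.179), by limma.

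Snhg1, the host of Snord22 and of other box C/D snoRNAs, had 278 and 272 RPKM in control at day 7, 423 and 341 with LAMZ at day 7, 84.4 and 100.1 in control at day 14, and 253 and 297 with LAMZ at day 14. The 2 control libraries of day 14 were far below the other 6, and LAMZ and control did not overlap at either day. Snhg1 rose with LAMZ at day 14 by a log2 fold change of 1.56 in limma (SE 0.15, adjusted p = 4.0e-04), while the value at day 7 was 0.47 (SE 0.15, adjusted p = 0.0910). Snhg1 fell in control from day 7 to day 14 (log2 fold change -1.57, limma adjusted p = 0.00487), and both libraries of day 14 lay below both of day 7. With LAMZ the change over time was -0.47 (limma adjusted p = 0.0802).

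Snhg5, which carries Snord50a and Snord50b, had 141 and 77.3 RPKM in control at day 7, 195 and 140 with LAMZ at day 7, 129 and 90.3 in control at day 14, and 171 and 159 with LAMZ at day 14. At day 7 the first control library reached the lower LAMZ library, so the groups overlapped, and at day 14 both LAMZ libraries were above both controls. The log2 fold changes by limma were 0.66 at day 7 (SE 0.30, adjusted p = 0.193) and 0.61 at day 14 (SE 0.30, adjusted p = 0.179). Over time the libraries overlapped in both arms, with 0.05 in control (adjusted p = 0.945) and 0.00 with LAMZ (adjusted p = 1.00) by limma.

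Snhg6, the host of the box C/D snoRNA Snord87, had 8.79 and 9.07 RPKM in control at day 7, 16.8 and 15.1 with LAMZ at day 7, 6.01 and 6.95 in control at day 14, and 17.8 and 15.0 with LAMZ at day 14. All 4 LAMZ libraries lay above all 4 control libraries. The values of Snhg6 rest on 36 to 119 reads a library. Snhg6 rose with LAMZ at day 7 (log2 fold change 0.77, SE 0.13, limma adjusted p = 0.00881) and at day 14 (1.22, SE 0.13, limma adjusted p = 6.3e-04). At day 7 the call was lost without the first LAMZ library (0.69) and when libraries were centred on ribosomal protein genes (0.30, limma adjusted p = 0.0507). It held in 19 of the 21 alternatives, which include voom, with the lowest adjusted p at 0.00381 (limma, centred on the median). The change over time was -0.41 in control (adjusted p = 0.118) and 0.04 with LAMZ (adjusted p = 0.881) by limma.

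Snhg12 carries 3 H/ACA snoRNAs and the box C/D snoRNA Snord99. It had 311 and 151 RPKM in control at day 7, 342 and 366 with LAMZ at day 7, 142 and 172 in control at day 14, and 257 and 244 with LAMZ at day 14. Both LAMZ libraries were above both controls at each day, and the 2 control libraries of day 7 lay far apart, the first near the LAMZ libraries and the second within the range of control at day 14. By limma the log2 fold changes were 0.70 at day 7 (SE 0.29, adjusted p = 0.159) and 0.68 at day 14 (SE 0.29, adjusted p = 0.132). Over time they were -0.47 in control (adjusted p = 0.387) and -0.50 with LAMZ (adjusted p = 0.278), again by limma.

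Snhg3 hosts the H/ACA snoRNAs Snora73a and Snora73b, known for their part in processing ribosomal RNA. Its level was 47.1 and 123 RPKM in control at day 7, 88.5 and 91.9 with LAMZ at day 7, 21.5 and 45.3 in control at day 14, and 68.2 and 75.8 with LAMZ at day 14. At day 7 the 2 control libraries stood on either side of both LAMZ libraries, and at day 14 the LAMZ libraries were above both controls. Snhg3 had a limma log2 fold change of 0.24 at day 7 (SE 0.44, adjusted p = 0.774) and of 1.17 at day 14 (SE 0.44, adjusted p = 0.0947). Over time it was -1.26 in control (adjusted p = 0.152) and -0.32 with LAMZ (adjusted p = 0.664), by limma.

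Snhg8, the host of Snora24, had 10.1 and 7.17 RPKM in control at day 7, 10.5 and 12.4 with LAMZ at day 7, 7.71 and 6.23 in control at day 14, and 21.9 and 15.9 with LAMZ at day 14. LAMZ and control did not overlap at either day, though at day 7 the higher control came close to the lower LAMZ library, and the 2 LAMZ libraries of day 14 were the highest of the 8. Snhg8 rose with LAMZ at day 14 (log2 fold change 1.31, SE 0.21, limma adjusted p = 0.00339), and the value at day 7 was 0.38 (SE 0.21, adjusted p = 0.276). Its values rest on 15 to 77 reads a library, the fewest of the 7 genes. The change over time was -0.26 in control (adjusted p = 0.508) and 0.67 with LAMZ (adjusted p = 0.0674), by limma.

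**Figure D2:**
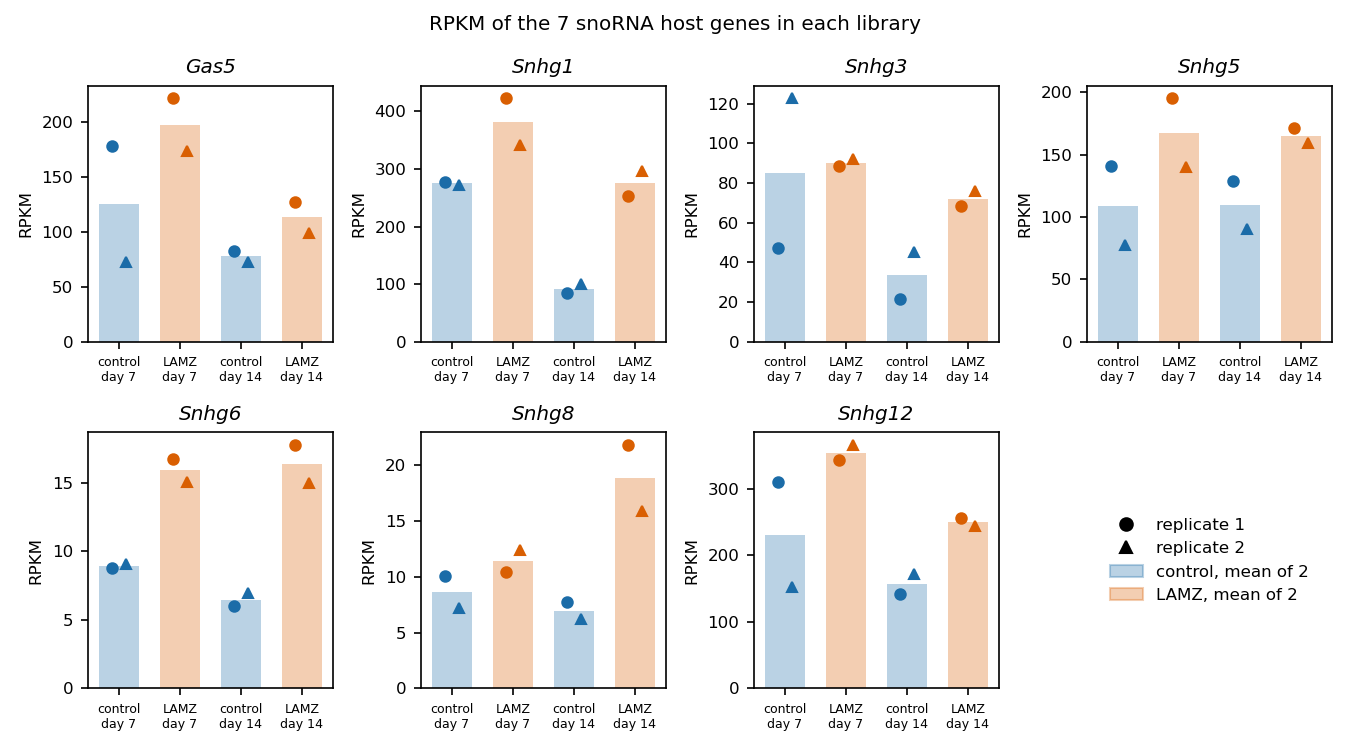
RPKM of each host gene in the 8 libraries, with 1 panel per gene, circles for replicate 1, triangles for replicate 2 and bars for the mean of 2. At day 14 both LAMZ libraries lie above both control libraries in every panel, and at day 7 the groups overlap for Gas5, Snhg3 and Snhg5.

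The spread between the 2 control libraries of day 7 was wide for several of these genes. The second library was low for Gas5, Snhg5 and Snhg12 and high for Snhg3, while Snhg1 and Snhg6 were close in the pair. Snhg8 was also lower in the second (10.1 and 7.17 RPKM). Without the first control library, limma called Gas5 (log2 fold change 1.42, adjusted p = 0.0117) and Snhg12 (1.22, adjusted p = 0.00652) higher with LAMZ at day 7, and the value of Snhg3 turned to -0.44 (adjusted p = 0.519). Without the second, the same day 7 values shrank to 0.14 for Gas5 (adjusted p = 0.728) and 0.19 for Snhg12 (adjusted p = 0.488), neither called, and that of Snhg3 grew to 0.92 (adjusted p = 0.169). Snhg5 went from 1.09 without the first to 0.23 without the second (adjusted p = 0.0537 and 0.619), and Snhg8 from 0.60 to 0.16 (adjusted p = 0.158 and 0.694). Over the 21 alternatives the adjusted p at day 7 ran from 0.0117 to 0.728 for Gas5, from 0.00652 to 0.488 for Snhg12, from 0.169 to 0.962 for Snhg3, from 0.0417 to 0.619 for Snhg5 and from 0.158 to 0.739 for Snhg8. Without the second control library, limma called Gas5 (-1.19, adjusted p = 0.0388) and Snhg12 (-0.99, adjusted p = 0.0259) lower over time in control, where the adjusted p otherwise reached 0.856 and 0.910. Leaving out either of the 2 also brought limma calls at day 14 for Snhg3 (1.17, adjusted p = 0.0306 without the first and 0.0310 without the second, 0.00682 to 0.388 over the alternatives) and Snhg12 (0.68, adjusted p = 0.00956 and 0.00984, 0.00956 to 0.980). It did so too over time with LAMZ for Gas5 (-0.79, adjusted p = 0.0269 and 0.0274, 0.0264 to 0.496) and Snhg12 (-0.50, adjusted p = 0.0412 and 0.0421, 0.0412 to 0.535). These libraries enter those comparisons only through the estimate of the spread, which all groups share. The study says in general terms that its experiments were repeated, but neither labels nor methods state that the 2 libraries of a group came from separate cultures, so the p-values measure the spread between these libraries.

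In order of mean level, control at day 7 ran Snhg1 (275 ± 4.51 RPKM, mean ± SD, n = 2), Snhg12 (231 ± 113), Gas5 (126 ± 74.8), Snhg5 (109 ± 44.8), Snhg3 (84.9 ± 53.5), Snhg6 (8.93 ± 0.195) and Snhg8 (8.63 ± 2.07). Neighbours in that order overlapped in range except Snhg3 and Snhg6. With LAMZ at day 7 the order was the same, from Snhg1 (382 ± 57.4) and Snhg12 (354 ± 16.7) to Snhg8 (11.4 ± 1.35), and only Snhg1 with Snhg12 and Gas5 with Snhg5 overlapped. In control at day 14 Snhg12 (157 ± 20.8) came first, Snhg5 (109.6 ± 27.3) and Snhg1 (92.3 ± 11.1) overlapped behind it, and Snhg8 and Snhg6 overlapped at the end. With LAMZ at day 14 Snhg1 (275 ± 30.8) and Snhg12 (250.2 ± 9.06) overlapped at the top, followed by Snhg5, Gas5 and Snhg3 without overlap, and by Snhg8 and Snhg6, which overlapped. The places of Snhg12 and Snhg8 depend on the lengths behind their values (1626 and 604 bases). Those lengths are shorter than the annotated exons (2402 and 853 bases).

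Added together, the 7 genes had 974 and 712 RPKM in control at day 7, 1298 and 1140 with LAMZ at day 7, 474 and 493 in control at day 14, and 916 and 906 with LAMZ at day 14. The sum was thus higher in both LAMZ libraries than in both controls at each day, and lower at day 14 than at day 7 in each arm. As a share of mapped reads this was 0.231% and 0.160%, 0.310% and 0.262%, 0.105% and 0.106%, and 0.205% and 0.203% in the same order. Snhg1 made up 17.8% and 20.3% of the summed RPKM in control at day 14, its lowest shares, against 27.6% to 38.1% in the other 6 libraries. Some signs of library makeup moved with LAMZ at both days and others at 1 day only. The share of mapped reads on genes was 74.1% and 71.8% in control and 75.7% and 76.9% with LAMZ at day 7, and 69.5% and 72.7% against 76.0% and 75.9% at day 14. The signal recognition particle RNA Rn7s1 had 84125 and 102592 RPKM in control against 144107 and 130457 with LAMZ at day 7, and 60044 and 51877 against 89986 and 100287 at day 14. The share of mapped reads on protein-coding genes overlapped at day 7 (67.2% and 65.3% against 66.9% and 68.3%) and was higher with LAMZ at day 14 (64.2% and 67.9% against 69.3% and 69.1%). Of the other abundant small RNAs looked at, Rn7s6 and n-R5-8s1 likewise overlapped at day 7 and were higher at day 14, while Rn7sk was higher at day 7 and overlapped at day 14 (6724 and 5675 RPKM against 6017 and 7070). Their part in the values of the host genes was not tested.

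At day 7, limma called 1 of the 7 genes higher with LAMZ (Snhg6), against a background of 4.35% of the 12514 genes tested, and 0 lower, against 8.49%. At an unadjusted p under 0.05 the count was 3 higher and 0 lower, where 9.49% of tested genes were higher and 18.5% lower. Voom on the recovered reads called 5 higher (Gas5, Snhg1, Snhg5, Snhg6 and Snhg12) and 0 lower, against 5.63% and 10.9% of the 12502 genes it tested. Both LAMZ libraries lay above both controls in 4 of 7, against 20.4% of tested genes. The median log2 fold change of the 7 was 0.66, against -0.08 over all tested genes.

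At day 14, limma called 3 of the 7 higher with LAMZ (Snhg1, Snhg6 and Snhg8), against 6.96% of tested genes, and 0 lower, against 16.0%. At an unadjusted p under 0.05 the counts were 5 higher and 0 lower, where 11.0% of tested genes were higher and 25.8% lower. Voom called 6 higher, all but Gas5, and 0 lower, against 8.57% and 21.4% of its genes. Both LAMZ libraries lay above both controls in 7 of 7, against 20.1% of tested genes. The median log2 fold change was 1.17, against -0.15 over all tested genes. The calls of Snhg1, Snhg6 and Snhg8 at day 14 held in all 21 alternatives tried. On data simulated with known changes at day 7, the limma fit made more false calls than its threshold allows, as described with the methods. A limma call near the threshold at day 7 may thus be weaker than its adjusted p states, and calls in the other comparisons may be too. The simulation gave every gene the same spread beyond counting and changed fewer genes than limma called at day 7. How far the adjusted p-values of these libraries are off was therefore not shown.

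**Figure D3:**
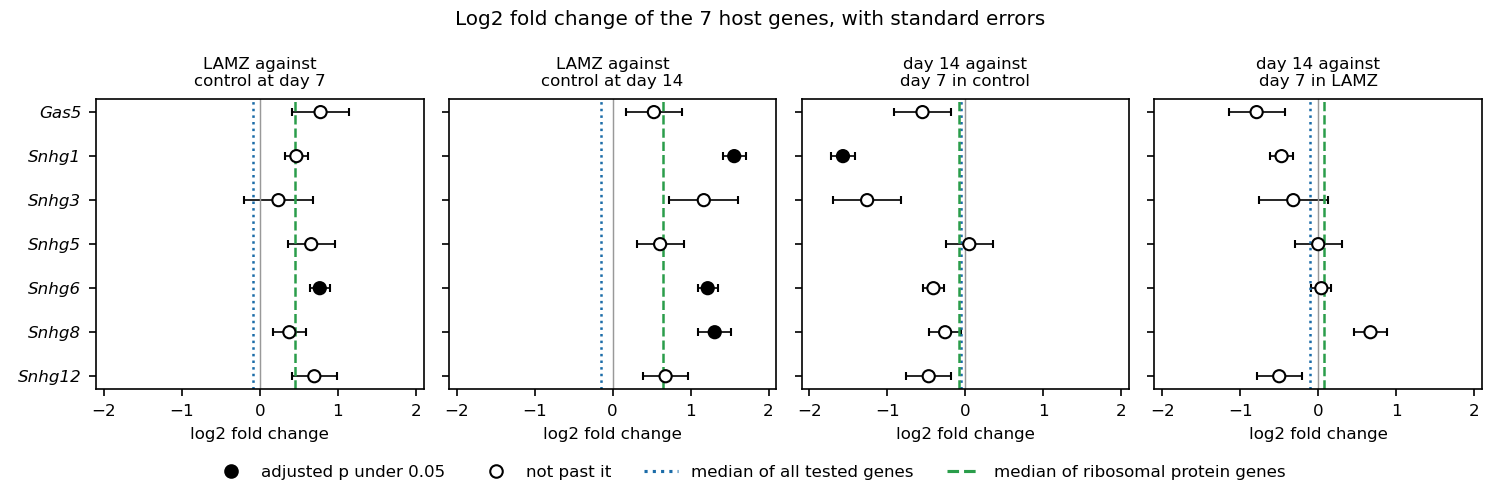
Log2 fold changes of the 7 host genes with LAMZ at each day and over time in each arm, with bars of 1 SE, filled symbols for an adjusted p under 0.05 in limma, and lines at the medians of all tested genes (dotted) and of ribosomal protein genes (dashed). The changes with LAMZ lie to the right of 0 at both days on the deposited scale, which centring on ribosomal protein genes turns for 2 genes at each day, and those over time lie mostly to the left.

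Over time in control, limma called 1 of the 7 lower at day 14 (Snhg1), against 2.40% of tested genes, and 0 higher, against 2.46%. At an unadjusted p under 0.05 it was 3 lower and 0 higher, where 12.3% of tested genes were lower and 9.50% higher. Voom called 2 lower (Snhg1 and Snhg3) and 0 higher, against 4.67% and 4.20% of its genes. The call of Snhg1 held in 20 of the 21 alternatives and was lost when the 4 control libraries were fitted alone (adjusted p = 0.10, the highest of its alternatives), a fit in which limma called 0 of all tested genes. Over time with LAMZ, limma called 0 of the 7 in either direction, where 14.4% of tested genes were called, with 1 higher and 1 lower at an unadjusted p under 0.05 (10.4% and 21.4% of tested genes) and 2 lower and 0 higher by voom (Gas5 and Snhg1 lower, against 15.7% lower and 6.91% higher of its genes). The median of the 7 was -0.47 over time in control and -0.32 with LAMZ, against -0.05 and -0.11 over all tested genes.

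Whether the LAMZ effect differed between the days was tested as an interaction. Limma called 0 of the 7 genes, where 0.623% of tested genes were called, with 3 higher and 0 lower at an unadjusted p under 0.05 (6.06% and 10.4% of tested genes). Voom called Snhg1 (1.11, adjusted p = 0.00225), where 1.06% of its genes were higher and 2.25% lower. The difference, day 14 minus day 7, was 1.10 for Snhg1 (SE 0.22, adjusted p = 0.0741), 0.93 for Snhg8 (adjusted p = 0.181), 0.93 for Snhg3 (adjusted p = 0.494) and 0.45 for Snhg6 (adjusted p = 0.285) in limma. It was -0.24 for Gas5 (adjusted p = 0.855), -0.05 for Snhg5 (adjusted p = 0.967) and -0.03 for Snhg12 (adjusted p = 0.985). With a minimum RPKM of 5, limma also called Snhg1 (1.10, adjusted p = 0.0496), and over 20 alternatives its adjusted p ran from 0.00225 to 0.243, with the call made in 2 of them. Snhg8 was called in 0 of the 20 (adjusted p from 0.125 to 0.378, with 0.291 by voom), so its call at day 14 alone was not shown to be a difference between the days. The comparisons within a day and over time share libraries and are not independent of each other.

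RPKM carries no scaling between libraries beyond the mapped reads, so the changes were also computed on other scales. Centring on the median gene put the median log2 fold change of all tested genes at 0.03 at day 7 and 0.04 at day 14, equal sums put it at -0.31 and -0.43, and centring on the 78 cytosolic ribosomal protein genes put it at -0.54 and -0.82. The share of limma calls that were higher with LAMZ moved with it, from 33.9% at day 7 and 30.3% at day 14 as deposited to 53.5% and 56.3% median-centred, 45.7% and 47.9% quantile-normalized, 8.59% and 7.98% with equal sums, and 3.22% and 2.21% centred on ribosomal protein genes. Rn7s1 alone held 18.1% to 33.7% of a library's summed RPKM and was higher with LAMZ at both days. The scale of equal sums therefore depends in part on this 1 RNA. All 7 host genes had log2 fold changes above 0 with LAMZ at both days as deposited. Equal sums turned Snhg3 at day 7 (-0.06), and centring on ribosomal protein genes turned Snhg3 (-0.22) and Snhg8 (-0.08) at day 7 and Gas5 (-0.13) and Snhg5 (-0.06) at day 14. It also left no change in Snhg1 at day 7 (0.00, adjusted p = 0.994, with 0.0162 to 0.994 over the alternatives) and next to none in Snhg12 at day 14 (0.01, adjusted p = 0.980, with 0.00956 to 0.980). Relative to ribosomal protein genes, Snhg1, Snhg6 and Snhg8 were still called higher at day 14.

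**Figure D4:**
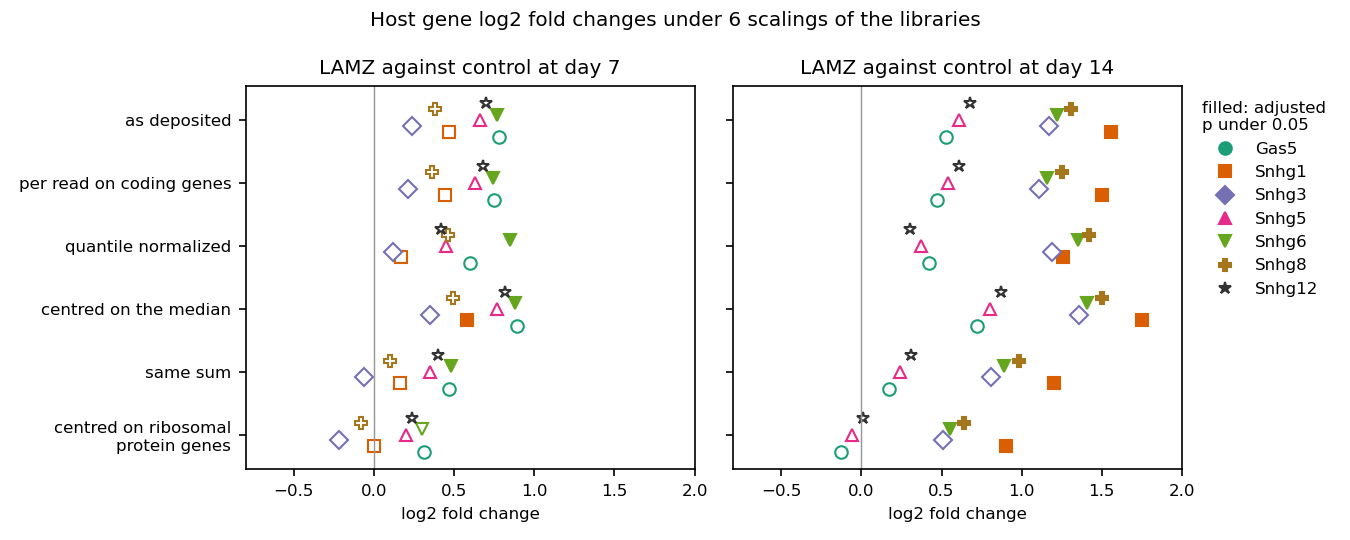
Log2 fold changes of the 7 host genes with LAMZ at day 7 (left) and day 14 (right) under 6 scalings of the libraries, filled where the adjusted p is under 0.05 in limma. Snhg1, Snhg6 and Snhg8 stay filled at day 14 in each scaling, while centring on ribosomal protein genes moves 2 genes below 0 at each day and equal sums move Snhg3 below 0 at day 7.

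Other noncoding hosts were taken from a list of 15 symbols, of which 12 are in the deposited tables (Snhg10, Snhg16 and Dancr are not) and 10 were tested. They are hosts by name. The annotation used here has no gene under the symbols Snhg4 and Snhg7, so what they carry was not looked up, and it places a scaRNA but no snoRNA inside Snhg20. At day 7, limma called 2 of the 10 higher and 1 lower (median 0.68), and at day 14 it called 3 higher and 1 lower (median 0.82). Voom called 5 and 4 higher, and 5 and 6 were higher at an unadjusted p under 0.05, with 1 lower each time. Snhg7 had 57.2 and 35.3 RPKM in control and 111 and 88.4 with LAMZ at day 7, then 10.7 and 14.3 in control and 21 and 29.5 with LAMZ at day 14. It rose with LAMZ at day 7 (log2 fold change 1.12, adjusted p = 0.0301) and day 14 (0.95, adjusted p = 0.0357) and fell over time in control (-1.78, adjusted p = 0.0137) and with LAMZ (-1.95, adjusted p = 0.00382), by limma and with no overlap of libraries. Snhg15 rose at both days (1.14, adjusted p = 0.0136, and 1.06, adjusted p = 0.0105), and Snhg4 at day 14 (1.14, adjusted p = 0.00617), in limma. Rian, an imprinted host of a snoRNA cluster, went the other way, with 25.2 and 22.6 RPKM in control against 11.9 and 11.6 with LAMZ at day 7 and 14.1 and 15.8 against 7.77 and 5.48 at day 14. Rian fell with LAMZ by limma at both days (-0.96, adjusted p = 0.00771, and -1.08, adjusted p = 0.00258). Zfas1, the most abundant of these hosts, did not pass in limma (0.90, adjusted p = 0.122, and 1.06, adjusted p = 0.0539). The other tested hosts of the list, namely Snhg9, Snhg17, Snhg18, Snhg20 and Epb41l4aos, had no limma call for LAMZ at either day. Snhg11 and Snhg14 were too low to test.

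Among 18 protein-coding hosts, limma called 1 higher (Gnl3) and 0 lower at day 7 (median 0.37) and 7 higher and 0 lower at day 14 (median 0.45). At an unadjusted p under 0.05 the counts were 5 and 10 higher and 0 lower, and by voom 6 and 9 higher and 0 lower. Eef2, an elongation factor, rose at day 14 (0.84, adjusted p = 0.00182), as did Rack1 of the small ribosomal subunit (0.75, adjusted p = 0.0180) and the mitochondrial chaperone Hspa9 (1.26, adjusted p = 0.00227). After these values had been seen, every other tested gene with an annotated snoRNA inside it, the 7 members left out, was grouped by kind. Limma called 3 higher and 2 lower of 17 noncoding hosts at day 14 (median 0.48), 19 higher and 17 lower of 165 other protein-coding hosts (median -0.10), and 17 higher and 0 lower of 29 hosts that encode ribosomal proteins (median 0.62). The large group of other protein-coding hosts thus had calls in both directions and a median near that of all tested genes, -0.15. At day 7 limma called 2 higher and 1 lower of the noncoding hosts (median 0.34). It called 7 higher and 6 lower of the other protein-coding hosts there (median 0.01), and 6 higher and 0 lower of those that encode ribosomal proteins (median 0.42).

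Proteins that build snoRNA particles or open intron lariats were followed as 20 genes, of which 19 were tested and 3 (Nop56, Nop58 and Dkc1) are also among the protein-coding hosts. Limma called 1 higher and 0 lower at day 7 (median 0.28) and 6 higher and 1 lower (Tgs1) at day 14 (median 0.19). At day 7 it was 3 higher and 1 lower at an unadjusted p under 0.05, and 1 higher and 0 lower by voom. Nop10 of the H/ACA particle rose at day 7 (0.44, adjusted p = 0.0402), and at day 14 its partner Nhp2 rose (1.05, adjusted p = 0.00234), as did Fbl, the methyltransferase of box C/D particles (0.80, adjusted p = 0.0142). Nop56, the most abundant of the list, had 0.62 at day 7 (adjusted p = 0.187) and 0.49 at day 14 (adjusted p = 0.244) in limma.

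Cytosolic ribosomal protein genes lay on the same side, with 19 of 78 called higher at day 7 (median 0.45) and 50 of 78 at day 14 (median 0.65), by limma. None was lower at either day at any p, since all 78 had log2 fold changes above 0, with 53 and 69 higher at an unadjusted p under 0.05, and voom called 51 and 72 higher and 0 lower. Their summed level was 17850 and 16620 RPKM in control at day 7, 23580 and 23180 with LAMZ at day 7, 14530 and 16850 in control at day 14, and 26300 and 24670 with LAMZ at day 14. Rplp0 rose at day 7 (0.43, adjusted p = 0.0491) and day 14 (0.94, adjusted p = 0.00117), and Rps6 did so too (0.59, adjusted p = 0.0339, and 0.75, adjusted p = 0.00815), while Rpl3 passed at day 14 only (0.45, adjusted p = 0.0801, and 0.60, adjusted p = 0.0199), by limma. Over time their medians were -0.08 in control and 0.08 with LAMZ, against -0.47 and -0.32 for the 7 noncoding hosts. Of 16 translation factors with TOP starts, 3 of them also among the protein-coding hosts, limma called 3 higher at day 7 (Eef1g, Eif3h and Eif4b, median 0.44) and 11 at day 14 (median 0.68), and all 16 were above 0 at both days. The counts were 11 and 15 higher at an unadjusted p under 0.05 and 10 and 14 by voom, with 0 lower by either. These families have log2 fold changes above 0 as deposited, and centring on the ribosomal protein genes sets the median of those genes to -0.01 at day 7 and -0.02 at day 14.

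Genes of the mTOR pathway with Larp1, which binds TOP mRNAs, gave 0 higher and 2 lower (Deptor and Tsc2) of 15 at day 7 (median -0.09) and 1 higher (Eif4ebp1) and 2 lower (Deptor and Tsc1) at day 14 (median -0.07) in limma. At day 7 it was 1 higher and 2 lower at an unadjusted p under 0.05, and 0 higher and 2 lower by voom, and at day 14 it was 2 higher and 4 lower, and 2 higher and 3 lower by voom. Deptor, an inhibitor of mTOR, fell at both days (-0.76, adjusted p = 0.0213, and -1.25, adjusted p = 0.00150), and Eif4ebp1, which restrains cap-dependent translation, rose at day 14 (1.66, adjusted p = 6.3e-05). Larp1 itself had 0.18 (adjusted p = 0.339) and 0.32 (adjusted p = 0.0721). RNA levels do not show the activity of this pathway, which was not measured.

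Factors of nonsense-mediated decay gave 0 calls of 18 by limma with LAMZ at either day, with 1 lower at day 7 and 0 at day 14 at an unadjusted p under 0.05, and 0 at both by voom. Their medians were -0.05 at day 7 and -0.05 at day 14. Of 9 tested mRNAs known as targets of that decay, limma called 1 higher at day 7 (Cdkn1a, 0.72, adjusted p = 0.0116, list median -0.24) and 5 higher at day 14 (list median 0.43), with 0 lower at either day. Voom gave the same counts, and an unadjusted p under 0.05 gave 1 higher and 3 lower at day 7 and 5 higher and 0 lower at day 14. The 5 called by limma at day 14 were Cdkn1a (0.43, adjusted p = 0.0475), Atf4 (1.23, adjusted p = 2.0e-04), Ddit3 (1.77, adjusted p = 0.00249), Gadd45a (0.62, adjusted p = 0.0126) and Atf3 (0.77, adjusted p = 0.0390), which are also known as genes of the integrated stress response and growth arrest. Decay of the host RNAs was not measured.

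Because the medium held dexamethasone in every group and Gas5 is known to bind the glucocorticoid receptor, the receptor and 10 responsive genes were followed. Limma called 0 higher and 1 lower (Mt2) of 11 at day 7 (median -0.31) and 2 higher (Mt1 and Mt2) and 2 lower (Nr3c1 and Per1) at day 14 (median -0.10). At day 7 it was 0 higher and 5 lower at an unadjusted p under 0.05, and 0 higher and 2 lower by voom. The receptor gene Nr3c1 fell with LAMZ at day 14 (-0.73, adjusted p = 0.00315), and its value at day 7 was -0.41 (adjusted p = 0.0501). The metallothionein Mt1 rose at day 14 (1.21, adjusted p = 0.00327), while Klf9, which had the highest mean over the 8 libraries but was below Nr3c1 in control at both days and below Dusp1 with LAMZ at day 14, had -0.07 and 0.03 (adjusted p = 0.756 and 0.896).

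**Figure D5:**
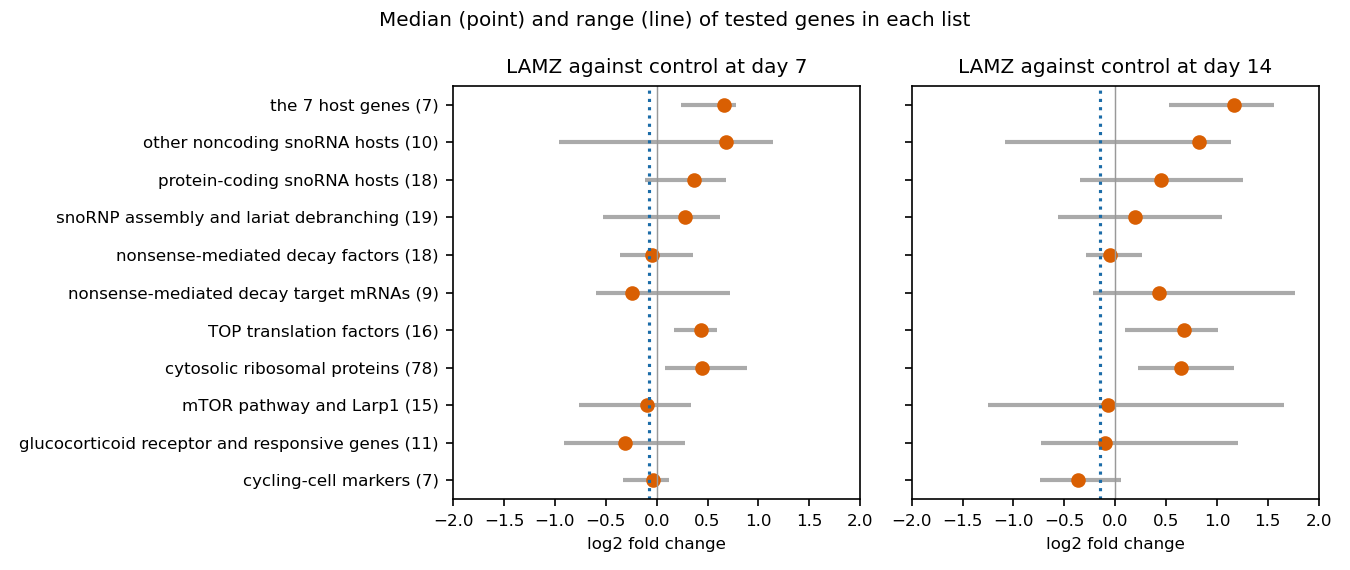
Median (point) and range (line) of log2 fold changes with LAMZ in each gene list at day 7 (left) and day 14 (right), with the number of tested genes in brackets and the median of all tested genes as a dotted line. The medians of the noncoding hosts, ribosomal protein genes and TOP translation factors lie to the right of the dotted line, and those of the decay factors and the mTOR list lie near it, on the deposited scale, while the range of the other noncoding hosts crosses the line; centring on ribosomal protein genes moves every list to the left.

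Markers of other cells moved with the treatment as well. The 15 macrophage markers were Lyz2, C1qa, C1qb, C1qc, Cd68, Adgre1, Csf1r, Tyrobp, Fcer1g, Ctss, Laptm5, Cd14, Aif1, Cx3cr1 and Ptprc. Beside the control sums given above, their summed level with LAMZ was 9.33 and 7.59 RPKM at day 7 and 7.5 and 8.05 at day 14, with Lyz2 the most abundant in every library. Of 14 tested, limma called 12 lower at day 7 and 13 lower at day 14, with no log2 fold change above 0, and C1qa, C1qb, C1qc and Ctss were among the 8 or 9 at 0 in each LAMZ library. Lyz2 had 312 and 409 RPKM in control against 8.20 and 6.27 with LAMZ at day 7, and 695 and 789 against 5.99 and 5.29 at day 14. In bulk RNA fewer cells of a type and less RNA per cell cannot be told apart, and the part of these cells in the values of the host genes was not tested.

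The osteoblast markers summed to 7177 and 8838 RPKM in control and 10920 and 10350 with LAMZ at day 7, and to 10740 and 10260 against 16500 and 18290 at day 14, with Col1a1 the most abundant, 0 of 9 at 0, and 6 of 9 called higher at each day by limma. Cycling-cell markers (Mki67, Top2a, Ccnb1, Cdk1, Birc5, Pcna and Mcm2) summed to 84.9 and 84.5 RPKM in control and 80.4 and 85.1 with LAMZ at day 7, and to 41.7 and 44.9 against 32.4 and 32.5 at day 14, with Pcna the most abundant and none at 0. With LAMZ, limma called 0 of 7 at day 7 (1 lower at an unadjusted p under 0.05, 0 by voom) and 2 lower at day 14 (Mki67 and Cdk1; 5 lower at an unadjusted p under 0.05, 2 by voom), and over time it called 5 lower in control and 7 lower with LAMZ. Adipocyte markers (Adipoq, Plin1, Fabp4 and Cidec) summed to 7.26 and 1.29 RPKM in control and 0.532 and 0.573 with LAMZ at day 7, and to 10.0 and 57.2 against 0.581 and 0.612 at day 14, with Fabp4 the most abundant. Of the 2 tested, Fabp4 and Adipoq, limma called 0 at day 7 (0 at an unadjusted p under 0.05 and 0 by voom) and 2 lower at day 14. Of 4 muscle markers (Myod1, Myog, Des and Ckm) only Des was tested and rose at day 14 (1.49, adjusted p = 0.00214), and none of 5 endothelial markers (Pecam1, Cdh5, Kdr, Tie1 and Emcn) reached the level for testing. The part of these markers in the host genes' values was not tested either.

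The genes beside or across the 7 hosts were looked at because reads of overlapping genes may be shared, and the strand setting of the counting is not stated. With LAMZ, limma called 0 of the 12 tested neighbours at day 7 (2 higher at an unadjusted p under 0.05, 0 by voom) and 2 at day 14, both higher (4 higher and 1 lower at an unadjusted p under 0.05, 3 higher and 1 lower by voom). Zbtb37, which overlaps Gas5 on the opposite strand, had -0.52 at day 14 (limma adjusted p = 0.0573). The 2 called by limma lie beside Snhg1: Slc3a2, the heavy chain of amino acid transporters (1.00, adjusted p = 0.00216), and Wdr74, a ribosome biogenesis factor (0.64, adjusted p = 0.0173). Slc3a2 rose over time in control (0.93, adjusted p = 0.0146), where Snhg1 fell. Snhg3 shares its locus with Rcc1 on the same strand and with the noncoding Gm17300 on the opposite strand. Gm17300 had 77.8 and 178 RPKM in control and 152 and 152 with LAMZ at day 7, and 69.0 and 83.9 against 126 and 169.8 at day 14, so that the second control library of day 7 was high in it as in Snhg3. If the counting did not use strand, reads of Snhg3 and Gm17300 cannot be told apart where they overlap.

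The genes whose pattern over the 8 libraries was most like the mean of the 7 hosts (each centred on its mean and divided by its SD) were Rack1 (r = 0.986), Gar1 (0.981), Col2a1 (0.981), Hspe1 (0.977), Nob1 (0.975), Bag2 (0.975), Adgra3 (0.974), Ttc37 (0.971), Eef1e1 (0.971) and Taf1d (0.970), by Pearson's r with n = 8. Of the 10, Rack1 and Taf1d hold annotated snoRNAs, which 1.74% of tested genes do. The r describes 8 libraries that share their 4 groups and carries no test.

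SnoRNAs that lie outside every other gene of the annotation can be counted on their own. A host that the annotation lacks would not be seen, so they need not be free-standing genes. Of 1494 symbols of snoRNAs and of the related scaRNAs in the deposited tables, 880 lie inside another gene, and 1 of these has a value above 0, while 50 of the 614 outside other genes do. The 15 outside with a mean above 1 RPKM were a group made after values had been seen. Both LAMZ libraries lay above both controls in 3 of the 15 at day 7, against 20.4% of tested genes. At day 14 they did so in 7, against 20.1%, and they lay below both in 1 at each day. Snord104, the most abundant, had 2815 and 945 RPKM in control and 3015 and 2388 with LAMZ at day 7, and 1703 and 1716 against 1967 and 2554 at day 14. The groups thus overlapped at day 7 and not at day 14. The second control library of day 7 was below the first in 14 of the 15, by little in Snora17 (476 and 405 RPKM) and by more in Snord104, and among the 7 hosts it was low in Gas5, Snhg5 and Snhg12 and high in Snhg3.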

How the data were processed

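The 8 libraries (total RNA, DMSO or LAMZ, day 7 or day 14) were read on an Ion Proton, and the authors assigned reads to genes in CLC Genomics Workbench and deposited RPKM, 1 value per symbol and library. The build is mm10 in the submitters' processing notes; the version and settings of the program are not given in the sources used here, and strandedness is not stated. The value column of the first LAMZ library of day 7 carries a different style of heading from the other 7 and was taken for that library by its file; its macrophage markers were as low as in the other LAMZ libraries. Of 51826 entries per file, 4 with symbols turned into dates were dropped.

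RPKM, as deposited, was tested as log2(RPKM + 1) with limma 3.58.1 (R 4.3.3, mean-variance trend) on the 12514 genes that reached an RPKM of 1 in 2 or more libraries, with 4 groups in 1 fit, 4 residual degrees of freedom and Benjamini-Hochberg adjustment over all tested genes. The fit was tested on simulated data with known changes at day 7: it found most of the larger changes and a minority of the smaller, and in every run the share of its calls that fell on unchanged genes was above the 0.05 that the adjustment aims at. Fold changes are on the log2(RPKM + 1) scale and understate the change of low genes. The 5 comparisons were LAMZ against control at each day, day 14 against day 7 in each arm, and the difference of the LAMZ effects. Low values are whole multiples of 1 read: with gene lengths from GENCODE M21 or searched, mapped reads came to 3463538 to 5832101 a library, 95.4% to 96.6% of the checked values were whole within 0.01 reads, and 99.94% of 29944 symbols with a value were recovered. For 6850 symbols the length was the shortest, up to 20000 bases, that made all values whole, which is easily found where reads are few. The depths came from the same single-exon genes that were checked, so neither share is an independent check. The lengths behind Snhg8 (604 bases) and Snhg12 (1626) are shorter than their annotated exons (853 and 2402). Replicates differed beyond counting (chi-square per gene 3.47 to 5.46).

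The members and lists were chosen with earlier results of these data known. Named genes were the members, every tested noncoding host of the list, from each list the 3 most abundant and up to 5 past the threshold with LAMZ, the neighbours of the members, and the 10 genes most like them. The ribosomal protein genes were the exception: they were to be given as a count and median, with Rplp0, Rps6 and Rpl3 named by choice and not for their level. Not every gene the rule allows is printed. The lists were other noncoding hosts, protein-coding hosts, snoRNA particle assembly, decay factors and targets, TOP factors, mTOR, glucocorticoid genes, ribosomal proteins, and osteoblast, macrophage, endothelial, adipocyte, muscle and cycling-cell markers. Alternatives changed the pseudocount, the filter, the scaling between libraries, the trend, the replicate block and the libraries in the fit, left out each library, or used voom on the recovered reads.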

Additional observations from a re-analysis of the deposited data

Results flagged for a closer look

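In 3 of the named genes the effect of LAMZ differed between day 14 and day 7 by the interaction test of limma, and none of the 3 calls was stable. The difference, day 14 minus day 7 on the log2 scale, was 1.04 for Atf4 (adjusted p = 0.0369, with 0.00198 to 0.151 over 20 alternatives), 1.31 for Eif4ebp1 (adjusted p = 0.0257, with 0.00130 to 0.122 over 20) and 2.05 for Mt2 (adjusted p = 0.0447, with 0.0358 to 0.173 over 19). The call was made in 9 of the alternatives for Atf4, 10 for Eif4ebp1 and 5 for Mt2. All 3 calls were lost without the filter on low values (adjusted p = 0.0926, 0.0657 and 0.136), with the replicate number as a block, and when any 1 of the 8 libraries was left out. Voom called Atf4 (adjusted p = 0.00198) and Eif4ebp1 (adjusted p = 0.00130) and not Mt2 (adjusted p = 0.130), whose level with LAMZ at day 7 was 0 and 0.326 RPKM. The same term passed for C1qb (-1.44, adjusted p = 0.0287, with 0.0135 to 0.582 over 20 alternatives) and C1qc (-1.20, adjusted p = 0.0487, with 0.0280 to 0.666 over 20), but both are at 0 in all 4 LAMZ libraries, so it only repeats their change over time in control with its sign turned and does not measure a difference in the LAMZ effect. None of the 7 host genes passed this test by limma as reported.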

How the results depend on the processing

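The 5 comparisons, in order, were LAMZ against control at day 7 and at day 14, day 14 against day 7 in control and with LAMZ, and the difference of the LAMZ effects. As reported, limma called 1607, 2878, 608, 1797 and 78 genes in them. A pseudocount of 0.1 gave 34 calls for the difference, a pseudocount of 5 gave 166, and no mean-variance trend gave 30. Without the filter there were 951 calls at day 7, 203 over time in control, 1091 over time with LAMZ and 0 for the difference (limma). A minimum RPKM of 5 gave 133 calls for the difference, 1 host gene among them (Snhg1), and 1 host gene higher over time with LAMZ (Snhg8). Rescaling to the same sum gave 3619 calls at day 7, 5868 at day 14 and 1155 over time in control, with Snhg3 at -0.06 at day 7, Snhg5 at 0.20 over time with LAMZ and 1 host gene higher there (Snhg8). Centring on the median gave 2 host genes higher at day 7 (Snhg1 and Snhg6), 1 higher over time with LAMZ (Snhg8), Snhg5 at 0.10 there, and differences of 0.03 for Snhg5 and 0.05 for Snhg12. Quantile normalization gave 1 host gene higher over time with LAMZ (Snhg8) and Snhg5 at 0.12. Centring on ribosomal protein genes gave 7413 calls at day 7, 9891 at day 14 and 266 for the difference, with 0 host genes higher at day 7 by limma, 1 lower over time with LAMZ (Snhg1), Snhg3 at -0.22 and Snhg8 at -0.08 at day 7, Gas5 at -0.13 and Snhg5 at -0.06 at day 14, and Snhg6 at -0.07 over time with LAMZ. Fitting only the libraries of a comparison gave 624 calls at day 7, 0 in control over time with 0 host genes lower, 1 host gene lower over time with LAMZ (Snhg12), and 4 host genes higher at day 14 (adding Snhg12, 0.68, adjusted p = 0.0273, with 0.00956 to 0.980 over its alternatives); it could not be fitted for the difference. Voom on the recovered reads, chosen after seeing the data, gave 5 and 6 host genes higher at day 7 and day 14, 2 lower over time in each arm, 1 higher for the difference, Snhg5 at 0.00 over time with LAMZ, and 1109, 2823 and 414 calls in the last 3 comparisons. Values per read on protein-coding genes, also chosen after seeing the data, moved no count by over 1.5 times. With the replicate number as a block, limma called 1376, 2700, 432, 1548 and 17 genes, and 1 and 4 host genes higher at day 7 and day 14; Snhg3 was added at day 14 (adjusted p = 0.0388) and no other call of a host gene changed. Libraries with the same number shared little beyond it (correlation of deviations from -0.0342 to 0.0776). Leaving out each library in turn, with the lone library of a group assumed to vary like the other groups, gave 527 to 1383, 1512 to 3087, 69 to 453, 488 to 1890 and 0 to 21 calls. Host genes higher numbered 0 to 3 at day 7 and 3 to 5 at day 14, and lower 1 to 3 over time in control and 0 to 2 with LAMZ. The log2 fold change ran from -0.44 to 0.92 for Snhg3 at day 7. Over time in control it ran from -1.19 to 0.09 for Gas5, -0.38 to 0.48 for Snhg5 and -0.99 to 0.04 for Snhg12, and with LAMZ from -0.24 to 0.24 for Snhg5 and -0.08 to 0.15 for Snhg6. The difference ran from -0.89 to 0.40 for Gas5, -0.48 to 0.38 for Snhg5 and -0.54 to 0.49 for Snhg12. Of 448 values of single host genes in the settings that keep all libraries, 413 kept their direction and side of the threshold, 2 lost a call, 21 gained one and 12 changed sign. The cause of these shifts was not tested. With 2 libraries a group, unstated origin of the replicates, host and embedded snoRNA reads that cannot be told apart in Gas5, Snhg1, Snhg5 and in part Snhg3, and macrophage markers and scaling that move with the treatment, the values describe RNA levels in these libraries.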
